A study of Homo sapiens with 63 samples.

Results

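Complex I subunit mRNAs were followed across sedimentation gradients of starved and growing HEK293 cells, a human embryonic kidney line. Members were all table entries whose symbol starts with NDUF, then A, B, C, S or V, and a digit, so that the NDUFAF assembly factors and NDUFAB1 stayed out. The rule found 38 of the 11074 genes in the table, and all 38 were among the 10889 genes that passed a filter on low signal. They comprise 7 core subunits, 29 accessory subunits, NDUFA4, which is now assigned to cytochrome c oxidase (complex IV), and the read-through entry NDUFC2-KCTD14, which joins NDUFC2 to the gene beside it. NDUFA4L2 and the 7 mitochondrially encoded subunits are not analysed here.

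Serum was withheld for 2 h in the serum-starved cells. Amino acids were withheld for 1 h in the amino acid-starved cells, whose balanced salt solution held MEM vitamins and 10% FBS. The log phase cells were growing in full medium. All 3 groups were treated with cycloheximide, which holds ribosomes on mRNA, for 10 min before lysis. Each condition gave 20 fractions of 1 gradient, numbered 3 to 22, from which poly(A)-selected RNA was sequenced. A condition is 1 gradient, so its differences from another condition carry no replicate error and no p-values are given. Which end of the numbering is the heavier one is not in the labels. Values are called signal: fraction totals ran from 36830.5 in log phase fraction 6 to 66981600 in log phase fraction 18, so the authors put a scale on each fraction that the sources used here do not give. Depth is unknown, and in bulk samples fewer cells and less RNA per cell cannot be told apart. Of the 6 genes listed as marks of HEK293 cells, 5 are in the table (NEFL, NEFM, VIM, KRT8 and KRT18) and PAX2 is not. None of 6 listed marks of liver, blood, endothelial or muscle cells is in it. Absence from the table does not show that a gene was not expressed.

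Complex I, the NADH:ubiquinone oxidoreductase, takes electrons from NADH, passes them to ubiquinone and pumps protons across the inner mitochondrial membrane. It is shaped like an L. The arm in the matrix holds the N module, which oxidises NADH, and the Q module, which reduces ubiquinone, and the membrane arm pumps the protons. Most of its subunits are encoded in the nucleus, translated by cytosolic ribosomes and imported, so their mRNAs can be followed in such a gradient. Cells without growth factors or amino acids lower the activity of mTORC1, and mRNAs that begin with a C and a run of pyrimidines, called TOP mRNAs, are known to lose ribosomes when this happens.

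The starts of the members that stood out, and of NDUFC1, are printed to show whether they carry such a tract. The sequences are from the RefSeq promoter table on GRCh38.p14, 15 bases before and 15 bases from the annotated start, with the 5 bases from the start in capitals, and RPS6 and EEF1A1 are known TOP mRNAs for comparison.
NDUFA10, chr2:240025328-240025357, minus strand: ggccccgtcgcgaccGCGTCcccttgggtc
NDUFA8, chr9:122159765-122159794, minus strand: tgttgccggatgcgcATGCGcaggcgccgt
NDUFA13, chr19:19516210-19516239, plus strand: cgggaccggaagtgtGGGATactgcgagta
NDUFB6, chr9:32573145-32573174, minus strand: cgcgcggcgctcggcGTTCCcgcaaggtcg
NDUFC1, chr4:139302537-139302566, minus strand: tcgcaatgggccccaCCTCCcgagaagagt
RPS6, chr9:19380222-19380251, minus strand: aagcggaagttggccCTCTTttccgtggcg
EEF1A1, chr6:73521018-73521047, minus strand: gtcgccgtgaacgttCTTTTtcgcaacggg

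A start of C followed by 4 bases that are each C or T was searched on the transcript strand. It stood at an annotated start of 1 of the 32 members found in that table, NDUFC1, at 1 of its 4 listed starts. The share was 3.125% of members, against 7.73% of the 9115 tested genes with an entry and 72.3% of 65 genes of cytosolic ribosomal proteins. With a run allowed to begin up to 10 bases to either side of the start, 12 of the 32 members had one (37.5%, against 41.7% of tested genes and 89.2% of ribosomal protein genes). NDUFA10 was among these 12, whereas NDUFA8, NDUFA13 and NDUFB6 were not. A match is a description of the annotated letters and not a measured start.

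An mRNA was placed by its position, the mean of the fraction numbers with the signal as weights. The median position of the 38 mRNAs was 15.57 without serum, 14.91 without amino acids and 16.47 in log phase. The median over all tested genes was 15.62, 15.12 and 16.94 in the same order. The members' median was below that of all genes by 0.05, 0.21 and 0.47 fractions without serum, without amino acids and in log phase. Without serum it was above by 0.13 when fraction 21 was left out and by 0.10 without fraction 20, against a lowest value of -0.24 without fraction 18. Without amino acids it ran from -0.33 without fraction 18 to -0.12 without fraction 20. Members spread over several fractions, with an SD across members of 1.12 without serum, 0.98 without amino acids and 1.22 in log phase. Of the 38, 18 lay above the median gene in serum-starved cells and 16 in amino acid-starved cells, against 13 in growing cells, an order that turned round at equal totals (11 and 12, against 17). Equal totals means that every fraction was scaled to the same total, which removes the unknown scale. It also gives nearly empty fractions the same weight as full ones. In log phase the share of fractions 3 to 7 rose from 0.19% to 16.5% of the NDUFA8 signal and from 0.05% to 6.45% of the NDUFA10 signal. Neither scale is known to be the right one. At equal totals the members' medians lay below the median gene by 0.52, 0.43 and 0.35 fractions.

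**Figure D1:**
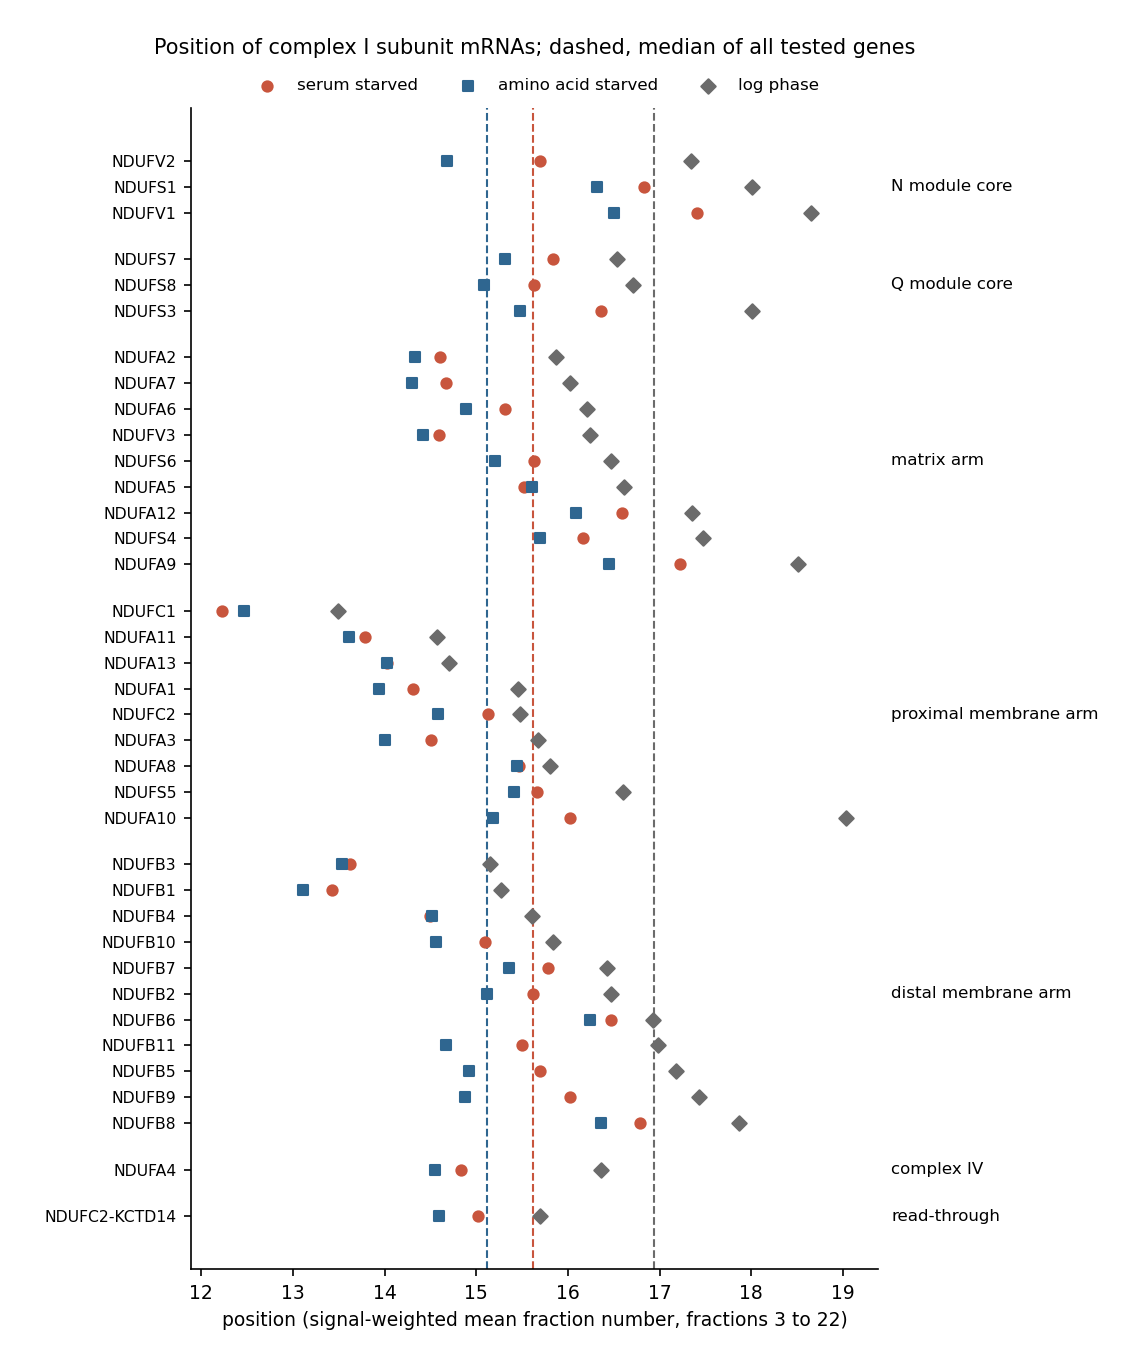
Position (signal-weighted mean fraction number) of 37 members in the serum-starved (circles), amino acid-starved (squares) and log phase (diamonds) gradients, with 1 gradient each, grouped by place in the complex. Dashed lines are the medians of all tested genes. NDUFC1 is lowest of all in each gradient, and NDUFA10 is the highest in log phase at 19.04 but sits among the others in the starved gradients.

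Core subunits of the matrix arm lay on both sides of the median gene. NDUFV1, which binds NADH and flavin, had positions of 17.41 without serum, 16.50 without amino acids and 18.65 in log phase. NDUFS1, the largest iron-sulfur subunit, had positions of 16.83, 16.32 and 18.01. NDUFV2, an iron-sulfur subunit of the N module, lay lower, at 15.70, 14.68 and 17.34. In the Q module NDUFS3 stood at 16.36, 15.48 and 18.01. NDUFS7 and NDUFS8, both iron-sulfur subunits, lay near the median gene, with 15.84, 15.31 and 16.54 for NDUFS7 and 15.63, 15.08 and 16.71 for NDUFS8. Their order is a description of 1 gradient per condition.

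Accessory subunits of the matrix arm and of the distal membrane arm had close medians. Those of the 9 in the matrix arm were 15.53 without serum, 15.20 without amino acids and 16.47 in log phase. The 11 of the distal membrane arm, all of the NDUFB family, had medians of 15.62, 14.88 and 16.47. The 9 of the proximal membrane arm had lower medians of 14.51, 14.03 and 15.48, and of 14.33, 14.79 and 13.08 at equal totals, but their log phase range of 13.49 to 19.04 enclosed the ranges of both other groups. The lowest 3 members in log phase all belong to this proximal group: NDUFC1 at 13.49, NDUFA11 at 14.57 and NDUFA13 at 14.70. The highest member in log phase, NDUFA10 at 19.04, belongs to it too, ahead of NDUFV1 and of NDUFA9 at 18.51, a matrix arm subunit near the ubiquinone site. NDUFA10 stood above 61.8% of tested genes without serum and above 52.2% without amino acids, against 99.4% in log phase. NDUFA4 had positions of 14.84, 14.54 and 16.36, and the read-through entry 15.01, 14.59 and 15.70, close to the 15.13, 14.59 and 15.48 of NDUFC2, with which it shares sequence.

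**Figure D2:**
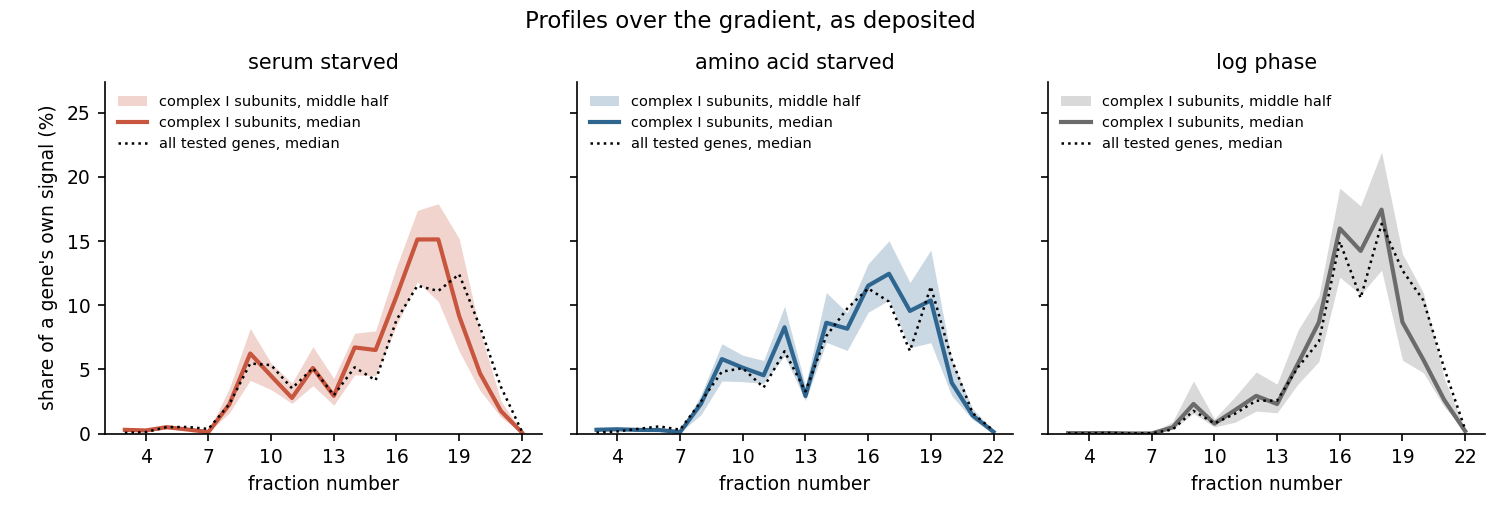
Median share of a gene's own signal (%) in each fraction for the 38 members (line, with the middle 50% of members shaded) and for all tested genes (dotted), by gradient. The members' median follows that of all genes, and falls below it from fraction 19 upward in all 3 gradients.

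By windows of the gradient, a median of 20.7% of a member's own signal lay in fractions 8 to 12 without serum, 26.5% without amino acids and 8.7% in log phase. The same medians over all tested genes were 22.5%, 23.1% and 7.2%. Fractions 18 to 22 held 33.2%, 26.6% and 38.6% of a member's signal, against 39.1%, 27.2% and 48.5% for all tested genes. The range among members was wide: of the NDUFC1 signal in growing cells 12.5% was in that upper window, and of the NDUFA10 signal 82.9%. These shares of a gene's own signal depend on the scale of the fractions.

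Without serum, 2 of the 38 mRNAs passed the size rule, 1 in each direction. NDUFA8 lay at higher-numbered fractions than the median gene's move would give, by 1.01 fractions, and NDUFA10 at lower-numbered ones, with a shift of -1.67. Here a shift is the difference of positions minus its median over all tested genes, and the size rule asks for at least 1 fraction with at least 0.5 in the same direction in the odd-numbered and in the even-numbered fractions taken apart. It is not a test. Of all tested genes, 5.7% passed it toward higher and 9.86% toward lower numbers, and the members' 1 of 38 in each direction did not exceed these shares. At equal totals 9 of 38 passed toward lower numbers, against 13.1% of all tested genes. There NDUFA8 had 1.18 and NDUFA10 had -3.03. NDUFA8 was under 1 fraction when any 1 of fractions 6 to 12, 19 or 21 was left out, with 0.89 without fraction 9 the lowest, while NDUFA10 passed without any single fraction (-2.08 to -1.30). Before centring, the median gene moved by -1.35 as deposited and by 1.55 with every fraction scaled to the same total, so only shifts relative to it are given.

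The median shift of the 38 mRNAs without serum was 0.20 as deposited and -0.47 with every fraction scaled to the same total. With every fraction scaled to the same sum of ERCC spike-in RNAs it was 0.15. The sign depends on the scale, so that no direction can be given for the group. As deposited, 26 of the 38 were above 0 and 12 below, against 12 above and 26 below at equal totals. The median was 0.18 in odd and 0.25 in even fractions. NDUFC2 (1.00, just below the rule) and NDUFB6 (0.89) followed NDUFA8 among the highest, and NDUFB1 (-0.49) and NDUFS3 (-0.30) came after NDUFA10 among the lowest. At equal totals the NDUFC2 value was 0.23 and that of NDUFB6 was -0.57. Of the core subunits, NDUFS7 had the highest shift at 0.65, and the other 6 lay between -0.30 and 0.27.

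Without amino acids, 4 of the 38 mRNAs passed the size rule. NDUFA8 (1.44), NDUFA13 (1.13) and NDUFB6 (1.12) lay at higher-numbered fractions than the median gene's move would give, and NDUFA10 (-2.05) at lower-numbered ones. Before centring, NDUFA8 (-0.36), NDUFA13 (-0.67) and NDUFB6 (-0.68) also moved to lower numbers as deposited, but less than the median gene (-1.80). NDUFA8 is a disulfide-bonded subunit on the intermembrane side, NDUFA13, also known as GRIM-19, crosses the membrane, NDUFB6 is a subunit of the distal arm, and NDUFA10 is related to nucleoside kinases and sits on the matrix face of the membrane arm. At equal totals NDUFA8 had 1.77, NDUFA13 had 1.53 and NDUFA10 had -3.41, whereas NDUFB6 turned to -0.10. The shares of all tested genes past the rule were 6.84% toward higher and 9.57% toward lower numbers. The 3 members toward higher numbers were close to this share and the 1 toward lower numbers was under it, whereas at equal totals 9 of 38 passed toward lower numbers, against 16.0% of all tested genes. NDUFA13 had 0.81 without fraction 9 and NDUFB6 had 0.995 without fraction 8, both under the rule. When fraction 16 was left out 7 members passed (6 higher and 1 lower, against 8.49% and 10.9% of all tested genes). Leaving out fraction 19 also gave 7 (5 and 2, against 6.58% and 9.69%).

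The median shift without amino acids was 0.29 as deposited, 0.42 at equal ERCC sums and -0.24 at equal totals. As deposited 27 members were above 0 and 11 below, and at equal totals 15 were above and 23 below. The median was 0.38 in odd and 0.26 in even fractions. After NDUFA10, the lowest were NDUFV2 (-0.86) and NDUFB9 (-0.75). NDUFS3 had -0.73, NDUFV1 -0.35, NDUFS1 0.11, NDUFS8 0.17 and NDUFS7 0.58 among the core subunits. By place, the medians were -0.35 for the N module core, 0.23 for the Q module core, 0.25 for accessory subunits of the matrix arm, 0.77 for the proximal and 0.30 for the distal membrane arm. At equal totals they were -1.60, -0.14, -0.27, 0.24 and -0.27 in the same order. The median of the proximal group was thus the only 1 of the 5 above 0 on both scales. Its members went both ways, from -2.05 (NDUFA10) to 1.44 (NDUFA8) as deposited. The serum-starved and amino acid-starved comparisons share the log phase gradient, so their likeness is not a separate result.

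**Figure D3:**
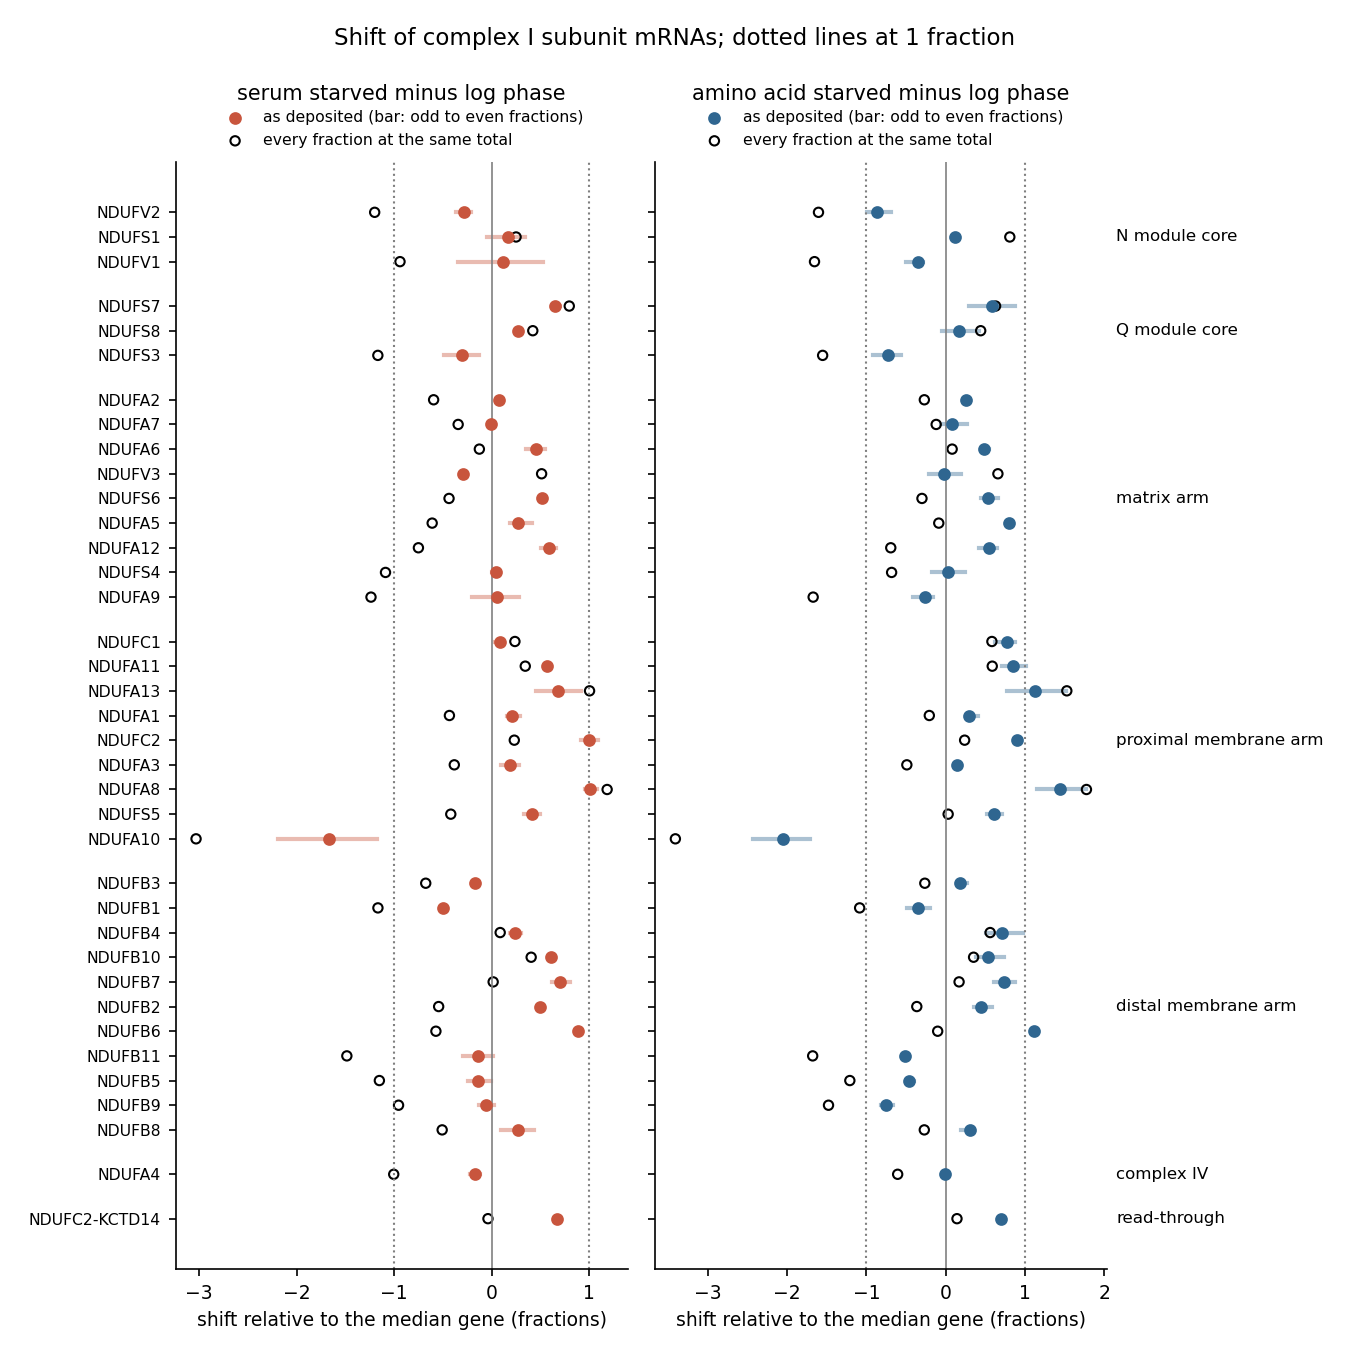
Shift of 37 members (fractions, relative to the median gene) for serum starved minus log phase and amino acid starved minus log phase. Filled points are values as deposited, bars join the odd-fraction and even-fraction values, open circles have every fraction at the same total, and dotted lines mark 1 fraction. NDUFA10 is the lowest in both panels on both scales, while many other members change side with the scale.

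Of the 38, NDUFA10 differed most in position between the starved and the log phase gradients. Its gene lies on chromosome 2 at 239892442 to 240025342 (GRCh38.p14). Without serum its signal ran from 2.28 in fraction 3 over a median of 292 to 1601 in fraction 20. Without amino acids it ran from 1.87 in fraction 3 over a median of 375 to 1505 in fraction 19. In log phase it ran from 0.52 in fraction 6 over a median of 157 to 5397 in fraction 20. The peak fraction was thus the same or adjacent in all 3 gradients, and the profile differed on both sides of it. In fraction 21 the NDUFA10 signal was 748 without serum and 320 without amino acids, against 4664 in log phase. Fractions 8 to 12 held 25.8% of its signal without serum and 30.4% without amino acids, against 2.75% in log phase. At equal totals these shares were 13.3% and 11.1%, against 6.0% in log phase. The median share of all tested genes in that window was 22.5% and 23.1% as deposited, against 7.2% in log phase. As deposited, fractions 18 to 22 held 52.5% and 40.1% of the NDUFA10 signal, against 82.9% in log phase. The difference was smaller at equal totals, with 63.5% and 60.2%, against 79.0% in log phase. For all tested genes the median share there was 39.1% and 27.2% as deposited, against 48.5% in log phase.

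The NDUFA10 difference can also be read within fractions, which does not depend on the scale given to them. In parts per 1000000 of the fraction's total signal (ppm), its mean over fractions 8 to 12 was 31.9 without serum and 25.5 without amino acids, against 10.0 in log phase, which is a log2 difference of 1.67 and 1.35 with no pseudocount. Over fractions 13 to 17 it was 39.3 and 49.2, against 14.1 in log phase (1.48 and 1.80 on the log2 scale). Over fractions 18 to 22 the 3 means were close, with 151.9 and 138.8, against 131.3, but they average opposite differences. NDUFA10 was higher without serum and without amino acids in fractions 18 (71.6 and 71.9, against 32.8), 19 (118.9 and 136.5, against 63.9) and 20 (200.6 and 172.3, against 137.2). It was lower in fractions 21 (201.8 and 164.6, against 220.9) and 22 (166.4 and 148.5, against 201.8). NDUFA10 thus took a larger part of the poly(A) RNA in each of fractions 8 to 20 in both starved gradients. The shift of -1.67 without serum was -2.20 in odd and -1.18 in even fractions, and that of -2.05 without amino acids was -2.43 and -1.71. With weights of log2(signal + 1) both came to -0.65 and no longer passed the rule.

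NDUFA8 and NDUFA13 had the opposite pattern within fractions, in the direction that most tested genes had. Of all tested genes, 77.7% without serum and 88.2% without amino acids were lower than in log phase in fractions 8 to 12. In fractions 18 to 22, 70.5% and 68.3% of all tested genes were higher. Without serum the NDUFA8 signal ran from 22.4 over a median of 866 to 3418, without amino acids from 18.5 over 915 to 3103, and in log phase from 4.29 over 2299 to 10828. Its mean in ppm in fractions 8 to 12 was 69.3 without serum and 51.0 without amino acids, against 196.1 in log phase. In fractions 18 to 22 it was 178.5 and 225.8, against 106.3 in log phase. The upper window thus held more NDUFA8 per unit of RNA than the lower one in both starved gradients, and less in log phase.

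For NDUFA13 the signal ran from 61.0 over a median of 3880 to 9744 without serum, from 88.4 over 4238 to 8774 without amino acids and from 9.45 over 7221 to 23212 in log phase. Its mean in ppm in fractions 8 to 12 was 391 without serum and 296 without amino acids, against 986 in log phase. In fractions 18 to 22 it was 382 and 479, against 199.96 in log phase. NDUFB6 ran from 9.92 over 215 to 2205 without serum, from 7.88 over 242 to 1911 without amino acids and from 0.88 over 481 to 7463 in log phase. In fractions 18 to 22 NDUFB6 had 99.9 and 141.0 ppm, against 72.2 in log phase, and in fractions 8 to 12 it had 18.5 and 16.1, against 28.4. The genes lie at 122132466 to 122159779 on chromosome 9 (NDUFA8), 19516225 to 19528198 on chromosome 19 (NDUFA13) and 32553001 to 32573159 on chromosome 9 (NDUFB6), on GRCh38.p14.

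**Figure D4:**
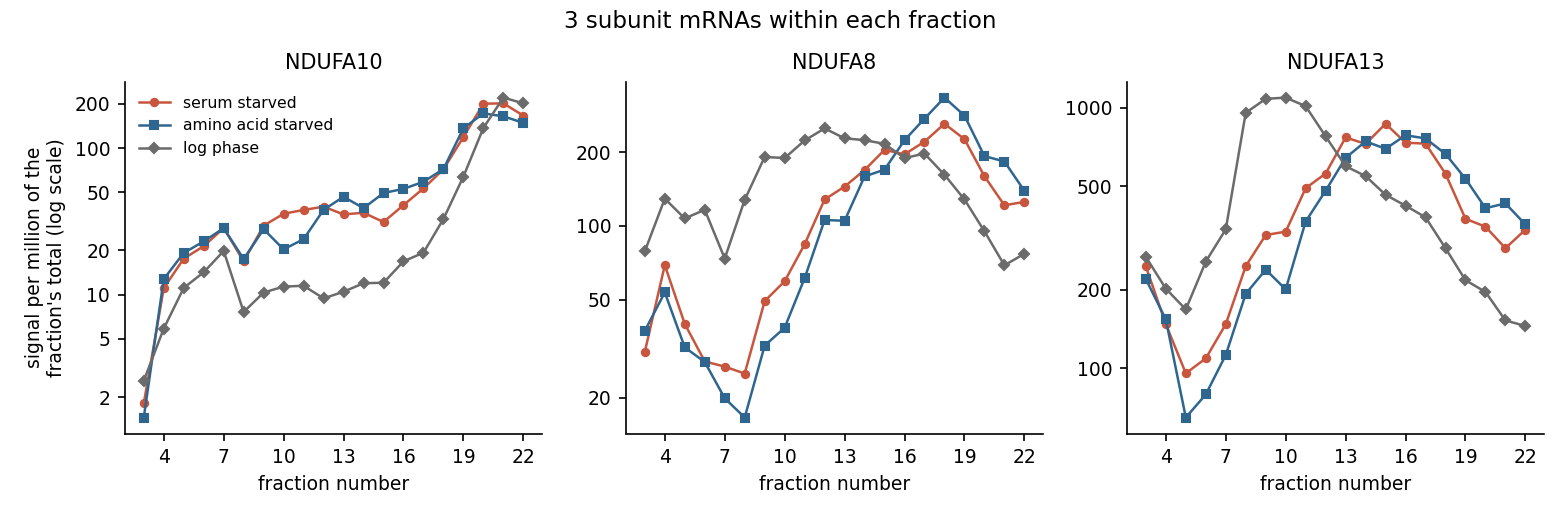
Signal per 1000000 of each fraction's total (log scale) for NDUFA10, NDUFA8 and NDUFA13 by fraction in the 3 gradients. NDUFA10 lies higher in both starved gradients than in log phase in fractions 4 to 20, whereas NDUFA8 and NDUFA13 lie lower in fractions 3 to 12 and higher in fractions 16 to 22.

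The 38 mRNAs as a whole took a larger part of the high-numbered fractions in the starved gradients. In fractions 18 to 22 their mean in ppm was higher than in log phase for 38 of 38 without serum and for 38 of 38 without amino acids. This held for 70.5% and 68.3% of all tested genes. The median log2 difference was 0.40 without serum and 0.71 without amino acids, against 0.22 and 0.24 over all tested genes. NDUFA13 had the largest value in both (0.93 and 1.26), and the smallest were those of NDUFB2 without serum (0.04) and NDUFA10 without amino acids (0.08). This comparison used a pseudocount of 1 and was added after the values had been seen. The members' median level, defined below, was well above that of all tested genes (in log phase 179.7, against 14.4). No comparison with genes of like level was made for this or the other windows.

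In fractions 8 to 12 the reverse was common. There 32 of the 38 without serum and 31 without amino acids were lower than in log phase, against 77.7% and 88.2% of all tested genes, so these counts were close to those of other genes. The median log2 difference was -0.61 without serum and -0.70 without amino acids, against -0.35 and -0.70 over all tested genes. NDUFA8 was lowest in both (-1.49 and -1.92) and NDUFA10 highest in both (1.58 and 1.26). In fractions 13 to 17 the members' medians were 0.28 and 0.23, against -0.03 and 0.21 over all tested genes.

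Summed over the members, the share of a fraction's total peaked at 1.65% in fraction 15 without serum, at 1.74% in fraction 17 without amino acids and at 1.19% in fraction 15 in log phase. With NDUFA11 left out the peak was in fraction 17 in all 3 gradients, at 1.39%, 1.51% and 1.05%. It was lowest in fraction 6 of both starved gradients (0.183% and 0.168%), against 0.304% in fraction 5 in log phase. Over fractions 8 to 12 the mean share was 0.532% without serum and 0.484% without amino acids, against 1.01% in log phase. Over fractions 18 to 22 it was 0.989% and 1.16%, against 0.726% in log phase. A large part was NDUFA11, which held 17.0%, 18.0% and 14.4% of the members' signal. Without NDUFA11 the share over fractions 8 to 12 was 0.395% and 0.365%, against 0.699% in log phase, and over fractions 18 to 22 it was 0.893% and 1.04%, against 0.669%.

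**Figure D5:**
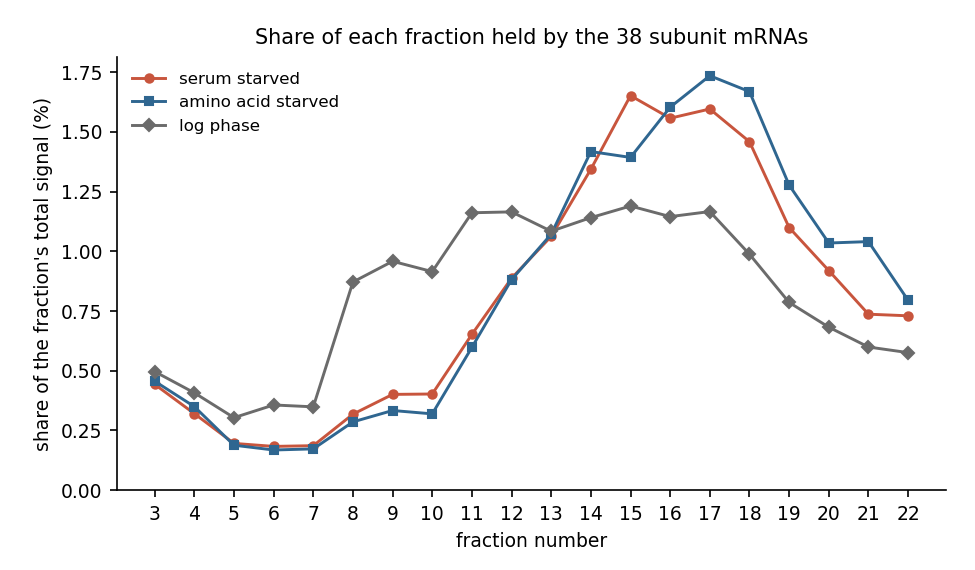
Share (%) of each fraction's total signal held by the 38 members together, by fraction, in the serum-starved, amino acid-starved and log phase gradients. Both starved gradients lie below log phase in fractions 3 to 13 and above it in fractions 14 to 22.

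No member passed the size rule between the starvations, amino acid starved minus serum starved. The median shift was 0.04 as deposited (0.15 in odd and -0.08 in even fractions) and 0.22 at equal totals. Of all tested genes, 2.01% passed toward higher and 1.06% toward lower numbers. The highest members were NDUFC1 (0.70), NDUFA5 (0.55) and NDUFB4 (0.49), and the lowest NDUFB9 (-0.68), NDUFV2 (-0.56) and NDUFV1 (-0.44). The absolute shift was under 0.5 fractions for 34 of the 38, against 76.1% of all tested genes. NDUFA8 and NDUFA13 had 0.45 and 0.47, and NDUFA10 had -0.36. The starvations also differ in time, with 1 h without amino acids and 2 h without serum. In this comparison and in that of levels, the time cannot be told apart from the nutrient withheld. Nor can the balanced salt solution given to the amino acid-starved cells.

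The level of an mRNA was its signal summed over fractions 3 to 22 per 1000000 of the gradient's total. NDUFA11, a subunit of the membrane arm, had the highest level, with 1494 without serum, 1498 without amino acids and 1422 in log phase. NDUFS1 had the lowest, with 19.9, 16.0 and 23.6. The median over members was 156.5, 153.9 and 179.7, against 10.5, 9.21 and 14.4 over all tested genes. Together the members made up 0.879% of the gradient's signal without serum, 0.834% without amino acids and 0.991% in log phase.

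None of the 38 passed the level rule in any comparison, which asks for 1 on the log2 scale with 0.5 in odd and in even fractions. The log2 ratio of starved over log phase, centred on the median gene, had a median of 0.24 without serum (range -0.21 to 0.65) and of 0.31 without amino acids (range -0.20 to 0.73). Uncentred, these medians were -0.19 and -0.27, against -0.43 and -0.59 over all genes with a level of at least 5. Among genes with such a level, 3.06% were called higher and 0.903% lower without serum, and 4.96% and 2.84% without amino acids. Amino acid starved over serum starved had a median of 0.05 (range -0.13 to 0.40), with 0.187% of all genes called higher and 0.0401% lower.

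Without serum the largest log2 ratios were those of NDUFA10 (0.65), NDUFC1 (0.60) and NDUFA13 (0.59), and the smallest those of NDUFB2 (-0.21), NDUFA12 (-0.12) and NDUFA5 (-0.11). Without amino acids NDUFC1 (0.73), NDUFA11 (0.66) and NDUFB1 (0.65) were the largest, and NDUFA12 (-0.20), NDUFA5 (-0.19) and NDUFS6 (-0.16) the smallest. The core subunits ran from 0.10 (NDUFV2) to 0.56 (NDUFV1) without serum and from 0.05 (NDUFS1) to 0.51 (NDUFV1) without amino acids. Between the starvations NDUFB1 (0.40), NDUFB3 (0.31) and NDUFB2 (0.30) were the largest, and NDUFS1 (-0.13), NDUFA9 (-0.09) and NDUFA10 (-0.07) the smallest.

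Profiles within fractions were compared among the members. Each member's log2 signal in ppm, minus that of the median gene in the same fraction, was correlated over the 20 fractions with the median of the other members. The fractions of a gradient share its libraries, so Pearson's r is given as a description. The median r was 0.77 without serum, 0.81 without amino acids and 0.76 in log phase, and r was at least 0.5 for 31, 32 and 28 of the 38. The subtraction of 1 shared profile can itself raise r, so the other tested genes were set against the members' median in the same way, after these values had been seen. Their median r was 0.12, 0.09 and 0.10, and for those at or above the members' median level it was 0.31, 0.29 and 0.22, with r of at least 0.5 in 33.1%, 35.6% and 38.3% of them. Each fraction counted alike in r. The log2 ratio of the members' median to the median gene fell from 6.74, 6.25 and 5.65 in fraction 3 to 2.13, 2.61 and 2.05 in fraction 7. In fractions 8 to 22 it stayed between 3.13 and 4.76. Yet fractions 3 to 7 held a median of only 1.58%, 1.38% and 0.107% of a member's own signal, and no r without them is given. NDUFS5, an accessory subunit on the intermembrane side, was most like the rest without serum (0.97) and in log phase (0.93), and NDUFB9 was without amino acids (0.97). Members with r below 0 in all 3 gradients included NDUFA10, NDUFS1 and NDUFV1, and in log phase also NDUFA9 and NDUFS3. NDUFS1 was the least like the others, with -0.67, -0.54 and -0.46. Members of higher level lay at lower positions, with r between position and log2 level of -0.38, -0.45 and -0.45 across the 38, again as a description. The order of the members was alike between gradients, with a Spearman rho, also a description, of 0.94 between both starved gradients, 0.93 between serum-starved and log phase and 0.84 between amino acid-starved and log phase. Pearson's r was 0.96, 0.92 and 0.84 over the members, against 0.95, 0.84 and 0.79 over all tested genes, so an alike order was common to other genes.

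NDUFAB1, the mitochondrial acyl carrier protein that is also a complex I subunit, had positions of 16.24, 15.66 and 16.88 and shifts of 0.71 without serum and 0.58 without amino acids, which turned to -0.44 and -0.46 at equal totals. Of the 22 symbols listed for complex I assembly factors, which include older names, 19 were in the table. Their median shift was 0.15 without serum and 0.20 without amino acids. Without serum only TMEM186 passed the rule (-1.19), and without amino acids TIMMDC1 (1.19, toward higher numbers) and TMEM186 (-1.13) did. TMEM186 turned to 1.30 and 1.29 at equal totals, while TIMMDC1 had 1.27. Without fraction 8 TMEM186 had -0.84 and -0.79, and without fraction 9 TIMMDC1 had 0.80, all under the rule, and TIMMDC1 also missed it without fraction 12. COA1 was the only assembly factor past the level rule, higher without amino acids at 1.04.

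Of 40 subunits of the other respiratory complexes, 6 passed the size rule without serum and 5 without amino acids, all toward lower numbers. Of all tested genes, 9.86% and 9.57% passed in that direction, and 5.7% and 6.84% in the other. Of 9 subunits of complex III, UQCRB (-1.10), UQCRC2 (-1.58) and UQCRH (-1.13) passed without serum, and UQCRB (-1.25) and UQCRC2 (-1.96) without amino acids. Of 10 nuclear subunits of complex IV, COX4I1 passed in both, with -1.35 and -2.11. Of 17 ATP synthase subunits, ATP5A1 (-3.05 and -3.43) and ATP5G2 (-1.09 and -1.63) passed in both. None of the 4 subunits of complex II passed, with median shifts of 0.34 and 0.42. All 6 of these genes kept their sign at equal totals, but with log2 weights UQCRB turned to 0.09 and 0.17 and UQCRH without serum to 0.04. Without fraction 9 UQCRB (-0.98), COX4I1 (-0.9985) and ATP5G2 (-0.77) missed the rule without serum, as did ATP5G2 without fraction 8 (-0.95) and UQCRH without fraction 8, 18, 19 or 20 (-0.98 to -0.995). No gene of these lists passed the rule between the starvations.

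The gene table on GRCh38.p14 held 37 of the 38 symbols, with NDUFA4 the exception. It names 61 pseudogenes of 17 members, the most for NDUFA5 and NDUFB4 with 12 each, and reads could be split between a gene and such copies, so the values of these members are less certain.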

How the data were processed

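The deposited signal is 1 table by the authors with a value per gene symbol and fraction. The submitters' processing notes name kallisto 0.44.0, sleuth 0.29.0 and the build hg38. The deposited name calls the values TPM, but the fraction totals differ widely, so a further scale, not given in the sources used here, was applied. The labels describe 63 samples, 60 fractions and 3 lysates; the lysates were not analysed here.

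The 29 ERCC spike-in rows and a luciferase row were taken out of the genes. To be tested, a gene needed a mean signal of at least 5 per gradient and at least 15 of 20 fractions above 0. Level ratios used a pseudocount of 1 and genes with a level of 5 in either gradient. Odd and even fractions stood in for the spread within a gradient. Calculations used Python 3.11.15, numpy 2.4.6 and pandas 2.3.3, and were tested on simulated gradients with known shifts.

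Genes named were the 7 core subunits (1 is counted in all totals but not reported here), the 3 lowest and highest members in log phase position and in each shift and level ratio, members past a size rule, NDUFA4, the read-through entry, NDUFAB1, and listed assembly factors or complex II to V subunits past a size rule. Other members were named after their values were seen. The members and lists were chosen with earlier results of these data known. The alternatives tried were other scalings, weights, filters, centrings and sizes, and leaving out each fraction number from all gradients. A planned comparison with protein length was not run. Shares within fractions were added after seeing the data.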

Additional observations from a re-analysis of the deposited data

How the results depend on the processing

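Each condition is 1 gradient of unknown depth, so a median was called moved when it changed by more than the gap between its odd-fraction and even-fraction values, and a count when it changed by more than 1.5 times. The cause of these changes was not tested. No paired analysis was possible because each condition has 1 gradient and no replicate. The planned description of position by protein length was not run.

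With every fraction at the same total, the members' position relative to the median gene was -0.52 without serum and -0.43 without amino acids, the median shift -0.47 and -0.24, and 11 members passed the size rule in each comparison with log phase (2 higher, 9 lower), against 12.1% higher and 13.1% lower of all tested genes without serum and 13.0% and 16.0% without amino acids. Scaling to the ERCC sum gave 4 members without serum (3 higher and 1 lower, against 4.82% and 7.97% of all tested genes). It gave 8 without amino acids (5 and 3, against 8.45% and 10%). The median shift on that scale was 0.15 without serum and 0.42 without amino acids. Weights of log2(signal + 1) gave relative positions of -0.67, -0.59 and -0.82 without serum, without amino acids and in log phase, a median shift of 0.043 without serum, and 0 members past the rule in both. With these weights few genes of any kind passed: 0.129% higher and 0.496% lower without serum, and 0.119% and 0.652% without amino acids. The fraction at 0.5 of the signal gave a relative position of 0.030 without amino acids and median shifts of 0.13 and 0.47. It called 1 member, NDUFC1, higher between the starvations, against 7.64% higher and 3.71% lower of all tested genes. A mean signal of 10 left 1 member without serum (NDUFA10, lower), against 5.59% higher and 9.66% lower of the genes tested there.

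Not centred, the positions were 15.57, 14.91 and 16.47, the median shifts -1.15, -1.51 and -0.42 (amino acid starved minus serum starved), the counts 24, 33 and 2 (all lower, against 69.2%, 86.4% and 7.75% of all tested genes), and the median level ratios -0.19, -0.27 and -0.13. NDUFA8 turned to -0.34 and -0.36, NDUFA13 to -0.67 and NDUFB6 to -0.68, while NDUFB6 was -0.10 at equal totals. A size of 0.5 fractions gave 12 members without serum (11 higher and 1 lower, against 20.1% and 20.8% of all tested genes), 20 without amino acids (15 and 5, against 19.9% and 21.1%) and 4 between the starvations (2 and 2, against 11.9% and 7.69%). The level ratio without serum was 0.27 with a pseudocount of 0.1 and 0.17 with no filter, and without amino acids it was 0.18 with no filter.

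Leaving out 1 fraction gave median shifts of 0.13 to 0.29, counts of 1 to 3 and level ratios of 0.21 to 0.27 without serum, and counts of 3 to 7 without amino acids. The shares of all tested genes then ran from 4.24% to 7.06% higher and 8.42% to 11% lower without serum. Without amino acids they ran from 5.35% to 8.49% and from 7.85% to 10.9%. No alternative gave a member past the level rule. NDUFA10 passed the size rule in 30 of 31 alternatives in each comparison with log phase. The 31 include the leaving out of each of the 20 fractions and a setting that changed only the list of members. They also include the uncentred setting, in which 69.2% and 86.4% of all tested genes passed toward lower numbers. It missed the rule with log2 weights, so the count of alternatives is not a measure of certainty.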
